A study of Mus musculus with 2 samples.

Results

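The genes described here encode the enzymes, transporters and regulators that take glucose from the blood to pyruvate, lactate and acetyl-CoA, together with those that build and break down glycogen. They were chosen by symbol as 40 named genes among the 38355 genes of the authors' deposited table, each symbol occurring once, and the aldolases are not part of the set. All 40 had reads and 39 had an adjusted p. The pyruvate carrier subunit Mpc1 had none, for a reason the sources used here do not give. The table compares group B with group A in cardiac ventricles of C57BL/6 mice aged 16 weeks. The labels name 2 genotypes, vTBX5KO (Myh6-MerCreMer, Tbx5LDN/LDN) and Flox (Tbx5LDN/LDN), with 1 sample each. Mice of both genotypes carried the Tbx5LDN/LDN allele. The protocol, worded alike for both samples, gave 30 mg/kg of TX per day, on 3 days, when the mice were 12 weeks old, and the hearts were taken 4 weeks after that. In vTBX5KO mice the inducible Cre recombinase is driven by Myh6, a cardiomyocyte myosin gene, so other cells of the ventricle would keep Tbx5, and the tissue was read in bulk. The labels and headers do not tie a letter to a genotype, so the direction between vTBX5KO and Flox is not known and every value compares group B with group A.

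The heart burns mostly fatty acids, with glucose as a further fuel. Glucose enters cardiomyocytes through transporters of the membrane and is trapped by hexokinase. Phosphofructokinase commits it to glycolysis, and its activator fructose 2,6-bisphosphate sets the pace. Pyruvate is then either reduced to lactate or carried into mitochondria, where the pyruvate dehydrogenase complex turns it into acetyl-CoA unless its kinases switch it off. Glycogen is the local store, opened by phosphorylase. Many of these steps have a muscle form and a form of other tissues, each from its own gene. Tbx5 is a T-box transcription factor of heart development and of the conduction system.

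Of the 39 tested genes, 3 were called, that is, had an adjusted p under 0.05 in the authors' deposited table. Pfkm, the muscle phosphofructokinase, and Ldhb, the heart form of lactate dehydrogenase, were lower in group B, and Gapdh, an enzyme of lower glycolysis whose transcript has many near-identical copies in the genome, was higher. The other 36 were not called. Among all 13230 tested genes the authors' deposited table called 3.98%, with 1.5% higher and 2.49% lower in group B. Genes of similarly high expression, with a mean of at least 1000 normalized counts, were called in 5.95% of 2809 cases, 0.783% higher and 5.16% lower. Of the 26 tested genes of the set that reach that mean, 2 (7.69%) were lower and 0 higher, where 1 call more or less moves the share by several points, and nothing particular to the set is read from it.

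Sequence around the start sites of the 3 called genes is shown because they carry the calls and because ACGTG, the core letters bound by hypoxia-inducible factors, was present in 20 of 39 genes whose promoters were matched in RefSeq (GRCm38.p6, 250 bases before to 50 after a start). Capitals mark every match to the 3 motifs searched on both strands, which were GGTGTGA for T-box factors, ACGTG, and AAGGTCA for oestrogen-related receptors. CACGTG reads the same on both strands and counts as 2 matches. The Pfkm window is the first of 4 listed for that gene and lies on the plus strand at chr15:98092339-98092638, and the other 2 lie on the minus strand, Ldhb at chr6:142507908-142508207 and Gapdh at chr6:125165724-125166023.
Pfkm: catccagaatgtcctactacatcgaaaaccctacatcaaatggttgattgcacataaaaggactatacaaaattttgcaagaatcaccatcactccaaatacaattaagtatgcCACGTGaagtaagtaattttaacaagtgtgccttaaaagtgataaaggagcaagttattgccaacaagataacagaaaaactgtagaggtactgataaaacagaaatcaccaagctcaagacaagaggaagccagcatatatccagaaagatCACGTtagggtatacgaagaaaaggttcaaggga
Ldhb: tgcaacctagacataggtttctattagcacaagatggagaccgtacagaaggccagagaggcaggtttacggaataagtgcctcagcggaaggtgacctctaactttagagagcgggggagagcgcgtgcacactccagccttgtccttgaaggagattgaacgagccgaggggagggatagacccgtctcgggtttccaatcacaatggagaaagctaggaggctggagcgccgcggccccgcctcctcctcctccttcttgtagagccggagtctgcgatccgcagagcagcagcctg
Gapdh: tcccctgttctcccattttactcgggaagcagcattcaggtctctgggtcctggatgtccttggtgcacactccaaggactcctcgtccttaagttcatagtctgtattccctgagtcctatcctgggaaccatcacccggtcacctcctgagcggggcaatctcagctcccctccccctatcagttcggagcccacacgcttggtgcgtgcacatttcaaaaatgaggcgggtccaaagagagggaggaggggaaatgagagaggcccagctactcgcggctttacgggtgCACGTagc
The Pfkm window holds CACGTG starting 136 bases before the start and CACGT starting 16 bases after it, the Gapdh window holds CACGT starting 42 bases after it, and the Ldhb window holds none of the 3 motifs. Of the other Pfkm windows, the one that starts at 98108221 has 1 match to ACGTG, and those that start at 98108306 and 98111810 have none. Since some genes have several windows, the count by window is the one to set beside the genome, and ACGTG stood in 23 of 57 windows of the set, against 19.6% of all 32851 promoters. GGTGTGA stood in 1 of the 57 windows, a window of Mpc1, against 3.98% of all promoters. AAGGTCA stood in 3 of the 57 windows, of Eno1, Pfkfb1 and Tpi1, against 4.72%. These are matches of letters in a window, and which start was used in these hearts was not measured.

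The table gives 1 mean per gene over all libraries. That mean resolved into 6 libraries, 3 of each letter, whose size factors, a measure of depth, were 1.56, 1.35 and 0.89 in group B and 1.16, 0.80 and 0.61 in group A. It is not given whether libraries sharing a letter are separate animals, and the p-values reflect variation from library to library, which may be technical. Tbx5 itself had a mean of 513 normalized counts and a log2 fold change of 0.92 in the authors' deposited table, where its adjusted p was 0.0575. Since the labels do not say which part of the gene the allele removes, this value checks neither letter. The tissue label matched its markers, since all 12 cardiomyocyte markers were tested, with means from 25894 to 579178 normalized counts. Fold changes in the table are shrunken towards 0. The standard errors below are upper bounds worked back from the adjusted p. The 95% intervals are the widest these bounds allow, before adjustment for the number of genes. Both assume that p came from the deposited fold change over its standard error, read against a normal distribution. The sources used here do not state which test was used. Reads per library were recovered as a unique set for Gapdh, Pdk3 and Pgam1, and as the best-ranked of several possible sets for 5 further genes, from which no SD or test is taken and whose values only describe the set. The share of all genes whose libraries separate by group is not given here, so a lack of overlap between groups is only described. Where reads per library were not recovered, group levels are implied by the mean and the shrunken fold and carry no spread of their own.

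The genes that bring glucose into the cell and phosphorylate it were all at negative log2 fold changes, and none was called. Slc2a4, the insulin-responsive transporter GLUT4, had the smallest adjusted p among the uncalled genes of the set. Its log2 fold change was -0.19 in the authors' deposited table, where the adjusted p was 0.221, and its interval ran from -0.35 to -0.03 (standard error at most 0.08). Slc2a1, the transporter GLUT1 of most tissues, stood at -0.15 there. Its best-ranked normalized reads per library were 239, 191 and 231 in group B and 202, 290 and 250 in group A, ranges that overlap. Hk2, the hexokinase of muscle, had a log2 fold change of -0.19 and Hk1, the hexokinase of most tissues, one of -0.42, in the authors' deposited table. The interval of Hk1 ran from -0.90 to 0.05, so a change of the size called for Pfkm is inside it.

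Upper glycolysis held the clearest lower value. Pfkm (ENSMUSG00000033065, chromosome 15, 98092589 to 98132447 on GRCm38) encodes the muscle subunit of phosphofructokinase, the step that commits sugar to glycolysis. Its mean was 18142 normalized counts, and the implied level was 15219 in group B and 21066 in group A. The log2 fold change was -0.47 in the authors' deposited table, that is, 1.38-fold lower in group B, and the adjusted p was 5.24e-04. The standard error was at most 0.10 and the interval ran from -0.67 to -0.27. Reads per library cannot be recovered at this level, so whether the groups overlap is not known. Every 50-base word of its longest coding transcript was found in no other gene. Pfkl, the liver subunit, had a log2 fold change of -0.27 (adjusted p 0.345) and Pfkp, the platelet subunit, one of 0.08 (adjusted p 0.871) in the authors' deposited table. Gpi1, which turns glucose phosphate into fructose phosphate, stood at -0.20 there with an adjusted p of 0.698.

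The bifunctional enzymes that make and remove fructose 2,6-bisphosphate were not called. Fbp2 is not one of them but is grouped with them here. Of these 4 genes 3 were at positive values, and Pfkfb1 was at -0.08 in the authors' deposited table. Pfkfb2, the heart form, had a log2 fold change of 0.25 in the authors' deposited table (adjusted p 0.390) and an interval of -0.02 to 0.52. Pfkfb3, the inducible form, stood at 0.35 there with an adjusted p of 0.381. Its best-ranked reads were 258, 265 and 183 in group B and 165, 190 and 191 in group A. The ranges overlap in that set. Pfkfb1, known as the liver and muscle form, had reads of 251, 300.0 and 297 in group B and 282, 319 and 245 in group A, and the ranges overlapped. Fbp2, the muscle fructose bisphosphatase that runs the phosphofructokinase step backwards, was at 0.04 with an adjusted p of 0.965 in that table.

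In lower glycolysis 7 of 8 genes were not called, and their log2 fold changes in the authors' deposited table lay between -0.14 for Pkm and 0.03 for Pgam2. Eno3, the muscle enolase, had the highest level per kilobase of the 40 genes and a log2 fold change of -0.07, with an error of at most 0.15. Pkm, the pyruvate kinase of muscle, had an adjusted p of 0.725 and Tpi1, triose phosphate isomerase, stood at -0.06 (adjusted p 0.948) in the authors' deposited table. Pgam1, the phosphoglycerate mutase of most tissues, was read at 40.3, 34.0 and 35.9 normalized reads in group B and 32.9, 31.4 and 46.1 in group A. The ranges overlapped and the ratio of the group means was 0.998. The best-ranked reads of Pgk1, phosphoglycerate kinase, were 210, 269 and 317 in group B and 280, 281 and 259 in group A. The ranges overlap in that set, and the log2 fold change was -0.05 in the authors' deposited table. Eno1, the enolase of most tissues, stood at -0.05 there, and its reads could not be told from other sets that give the same mean.

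Gapdh (ENSMUSG00000057666, chromosome 6, 125161853 to 125166467 on GRCm38) is taken apart from the others, since its reads can be shared with copies elsewhere in the genome. It had 191, 110 and 148 normalized reads in group B and 36.3, 42.7 and 61.0 in group A. All B libraries were above all A libraries, with 110 for the lowest of group B and 61.0 for the highest of group A. The means were 150 ± 40.5 in group B and 46.7 ± 12.8 in group A (SD, n = 3 libraries each), a ratio of 3.21, and leaving out 1 library at a time gave ratios from 2.77 to 3.79. The log2 fold change was 1.40 in the authors' deposited table, or 2.64-fold higher in group B, at an adjusted p of 8.28e-06 and a standard error no larger than 0.26. A limma-voom fit of recovered reads gave 1.72 ± 0.28 (standard error) with an adjusted p of 0.0118. That call was lost without A1 (adjusted p 0.134) and without A2 (adjusted p 0.0846).

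Only 17.5% of the 50-base words in the longest Gapdh transcript were found in no other gene, and 213 annotated pseudogenes shared words with it. The table lists 86 pseudogenes that share at least 5% of the words, and 85 of them had reads. Their means summed to 1145 normalized counts in the authors' deposited table, against 98.2 for Gapdh itself. The largest, Gm13394, had a mean of 516 and a log2 fold change of 0.11 with no adjusted p there. Of 7 copies tested, 0 were called, and the median log2 fold change of the copies with reads was 0.07 in the authors' deposited table. Recovered reads leave out Gm13394, whose mean of 516 is above the limit of 100 for recovery. The other 84 copies with reads summed to 903, 661 and 405 normalized reads in group B and 557, 616 and 628 in group A, and the groups overlapped. With Gapdh added to these 84 copies the sums were 1094, 771 and 553 in group B and 594, 658 and 689 in group A. The ratio was 1.25 and the groups again overlapped. Sums with Gm13394 included are not known per library. The sources used here do not say how reads that match several genes were counted, so the level of Gapdh, and how far its difference is one of the gene alone, are uncertain.

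**Figure D1:**
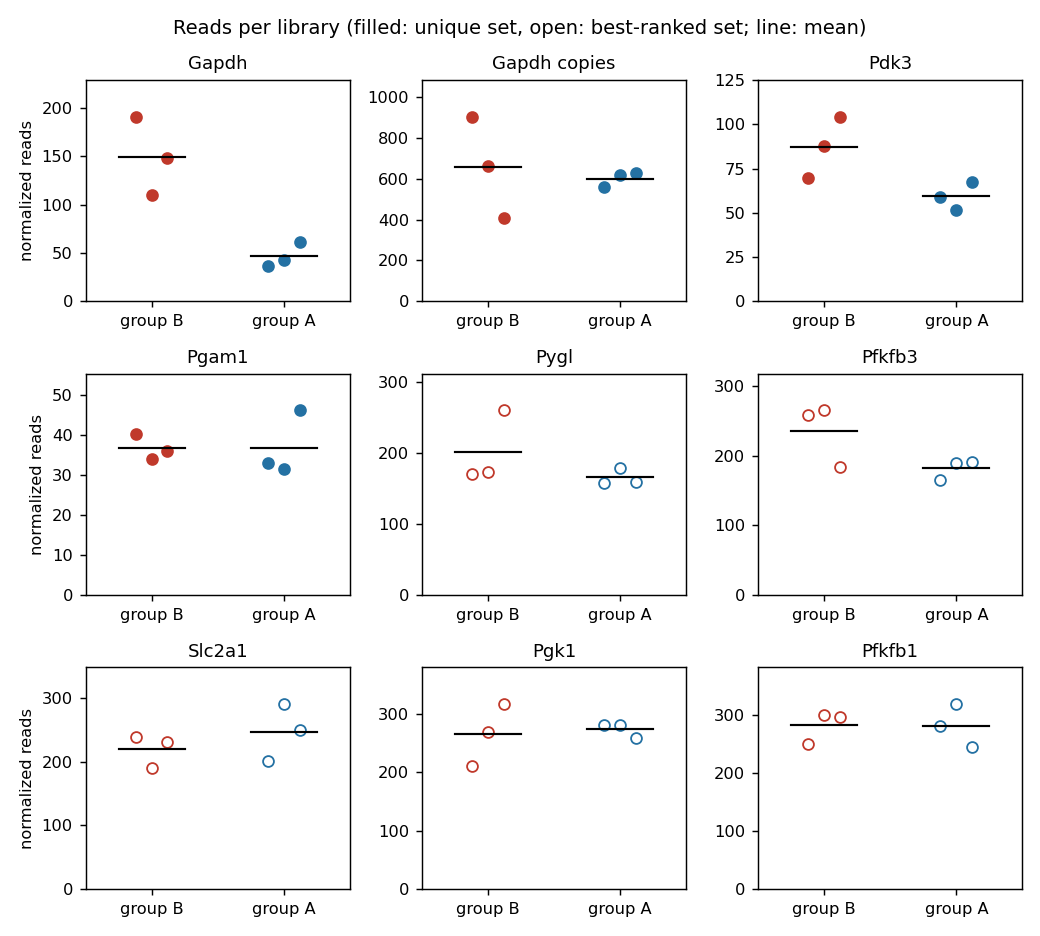
Normalized reads per library (vertical axis, linear from 0) in group B (red) and group A (blue). Shown are Gapdh, the sum of its 84 pseudogene copies with recovered reads, and the 7 other member genes whose reads per library were recovered. The sum leaves out Gm13394, the largest copy. Filled points come from a unique set of whole reads, open points from the best-ranked set, and the line is the mean of the 3 libraries. The lowest B library was above the highest A library in Gapdh (110 against 61.0) and in Pdk3 (69.7 against 67.5), while the sums of these copies overlap. Pdk3 was not called, and the share of all genes that separate in this way is not given.

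Of the lactate dehydrogenases, Ldhb (ENSMUSG00000030246, chromosome 6, 142490249 to 142507957 on GRCm38), the heart subunit that favours the use of lactate, was lower in group B. Its mean was 11838 normalized counts, with an implied level of 10003 in group B and 13672 in group A. The log2 fold change was -0.45 in the authors' deposited table, 1.37-fold lower in group B, where the adjusted p was 0.00147, and the interval ran from -0.66 to -0.24 (standard error at most 0.11). Ldha, the muscle subunit, stood at -0.02 with an interval of -0.29 to 0.25 in the authors' deposited table, and the value of Ldhb lies outside that interval. The difference between both genes was not tested. Ldhd, the mitochondrial D-lactate dehydrogenase, was at -0.20 with an adjusted p of 0.371 there. A processed pseudogene, Gm5514, shares 27.0% of the words of the Ldhb transcript. It had a mean of 921 normalized counts, a log2 fold change of -0.38 in the authors' deposited table (adjusted p 0.140).

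Pyruvate entry into mitochondria and its oxidation had no call among 8 tested genes. Pdk3, one of the kinases that switch pyruvate dehydrogenase off, had 69.7, 87.9 and 104 normalized reads in group B and 58.8, 51.5 and 67.5 in group A. All B libraries were above all A libraries by a narrow margin, at 69.7 for the lowest of group B and 67.5 for the highest of group A. The means were 87.3 ± 17.4 in group B and 59.3 ± 8.02 in group A (SD, n = 3 libraries each), a ratio of 1.47. The log2 fold change in the authors' deposited table was 0.48 (standard error at most 0.22, adjusted p 0.249), and the limma-voom fit of recovered reads gave 0.53 with an adjusted p of 0.340. It is the least abundant of the 4 kinases per kilobase. Pdk4, the kinase induced by fasting and fatty acids, was at -0.00 in the authors' deposited table, with an interval of -0.61 to 0.61 that leaves room for a change of more than 1.5-fold either way. Pdk1 stood at -0.26 and Pdk2 at 0.20 there.

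The subunits of the complex itself were at small negative values, with Pdha1, the catalytic alpha subunit, at -0.09, Pdhb, its beta partner, at -0.18 and Dlat, the acetyl-transferring core, at -0.11 in the authors' deposited table. Their adjusted p ran from 0.717 to 0.900. Mpc2, a subunit of the carrier that takes pyruvate through the inner membrane, was at 0.11 with an adjusted p of 0.919, and Mpc1, its partner, at 0.09 with none. Mpc1 shares 23.2% of its words with a processed pseudogene, Mpc1-ps, which had a mean of 1768 normalized counts and a log2 fold change of -0.01 in the authors' deposited table.

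No glycogen gene of 8 was called, and the log2 fold changes lay between -0.12 for Pygm and 0.28 for Ugp2 in the authors' deposited table. Ugp2 makes UDP-glucose for glycogen synthesis and Gbe1 is the branching enzyme. They stood at 0.28 and 0.19 with adjusted p of 0.695 and 0.749 there. Gys1, the muscle glycogen synthase, was at -0.04. Of the phosphorylases that release glucose from the store, Pygm, the muscle form, was at -0.12, Pygb, the brain form, at -0.03 and Pygl, the liver form, at 0.25. Pygl had best-ranked reads of 171, 174 and 260 in group B and 158, 180 and 160 in group A, ranges that overlap. Phka1 and Phkg1, subunits of the kinase that activates phosphorylase, were at -0.07 and -0.09 in the authors' deposited table, and the interval of Phka1 ran from -0.27 to 0.13.

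**Figure D2:**
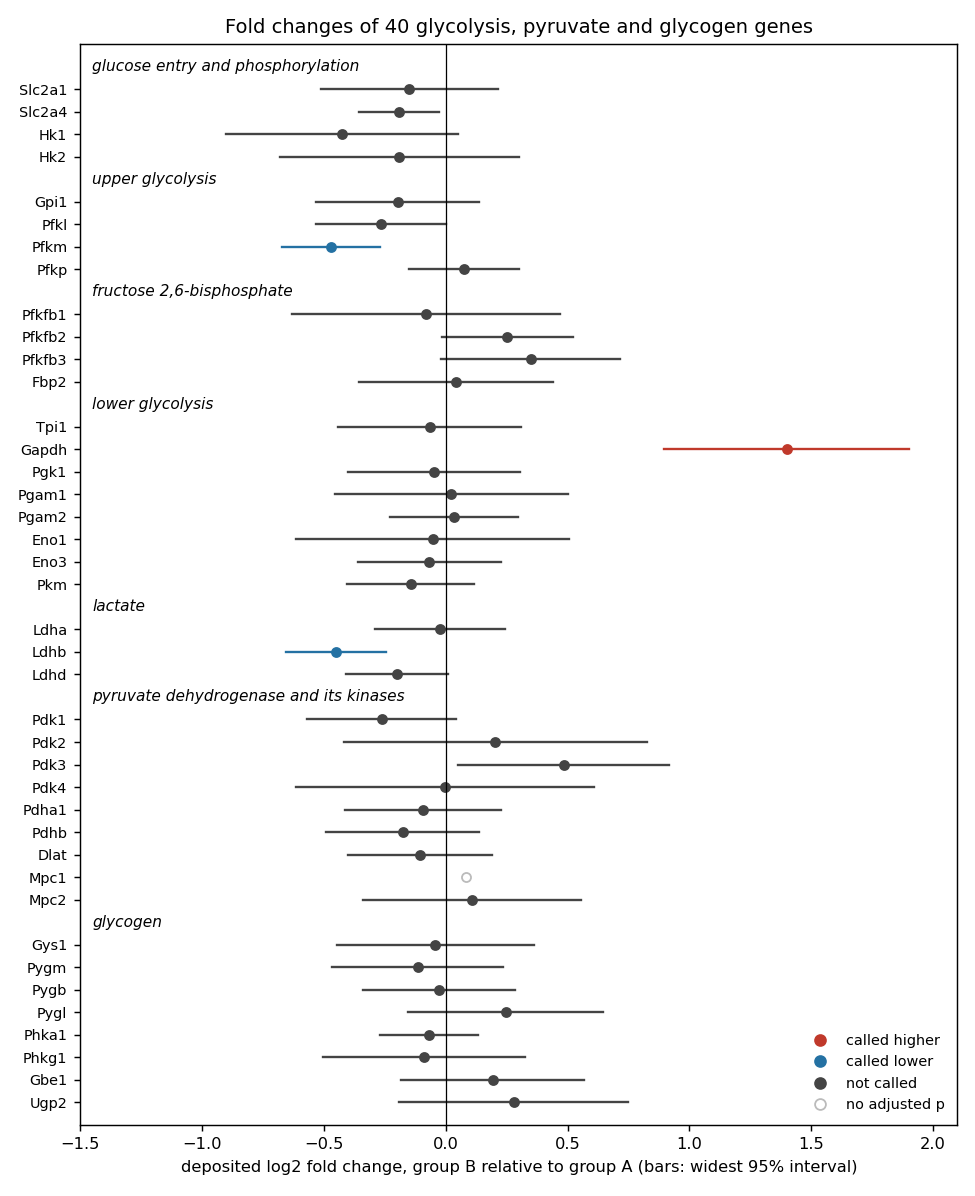
Log2 fold change of group B relative to group A in the authors' deposited table (horizontal axis) for the 40 genes, by role. Points are red where called higher, blue where called lower, dark where not called and open where there was no adjusted p, and bars are the widest 95% interval. Pfkm at -0.47 and Ldhb at -0.45 lie left of 0, Gapdh at 1.40 lies far to the right, and most other bars cross 0.

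Across the set, 26 of 39 tested genes had a negative and 13 a positive log2 fold change, with a median of -0.06, or -0.07 without Gapdh. The median over all tested genes was -0.00, and over tested genes with a mean of at least 1000 it was -0.05. The set is made mostly of genes at a high level, and its median mean was 3920 normalized counts, against 310 over all tested genes. Log2 fold changes ran from -0.47 to 1.40, and 33 of 39 genes lay within 0.3 of 0. No gene had an adjusted p between 0.05 and 0.2, so the calls do not depend on a value just inside or outside the threshold. The median upper bound of the standard error was 0.18 for these genes and 0.20 over all tested genes.

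**Figure D3:**
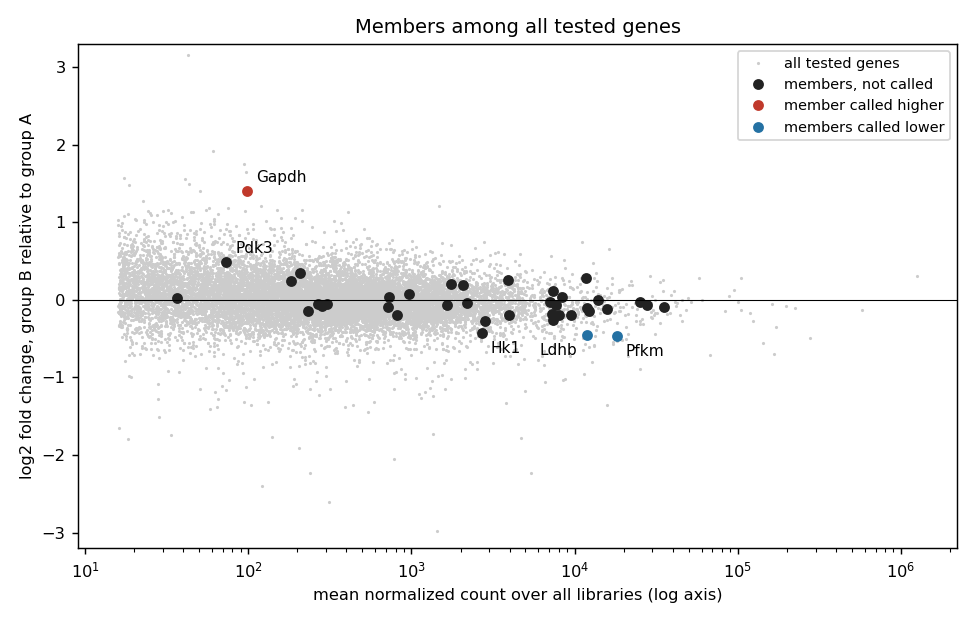
Log2 fold change of group B relative to group A (vertical axis) against the mean normalized count (horizontal log axis), both from the authors' deposited table, for all 13230 tested genes (grey) and the 39 tested genes of the set (large points, coloured where called). Most of the set lies in a narrow band near 0 at high counts, with Pfkm and Ldhb below it and Gapdh above it at a mean of 98.2.

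Levels per kilobase of the longest coding transcript show which form of each step these ventricles used. The ratios rest on the mean over both groups unless a group is named. Pfkm held 86.4% of the phosphofructokinase transcripts, Pfkl 10.4% and Pfkp 3.21%. Slc2a4 held 97.8% of both glucose transporters and Hk2 73.2% of both hexokinases. The muscle forms Pgam2 and Eno3 held 99.8% and 99.2% of their pairs, where the partners Pgam1 and Eno1 have 58.5% and 27.8% of their 50-base words in no other gene. Ldhb held 69.8% of Ldha and Ldhb together and Pfkfb2 82.0% of the 3 phosphofructokinase 2 genes. Mpc2 held 94.2% of the carrier pair, but Mpc2 and Mpc1 are partner subunits of the same carrier and not alternative forms. Mpc1 also shares words with the pseudogene Mpc1-ps. Pdk4 made up 64.3% of the 4 kinases, followed by Pdk1 at 22.8%, Pdk2 at 12.4% and Pdk3 at 0.554%. Glycogen phosphorylase was split between Pygb with 53.7% and Pygm with 45.8%, and Pygl had 0.510%. With merged exon lengths in place of the longest coding transcript the same gene led in 10 of 10 families, although the share of Mpc2 then was 83.0% and that of Mpc1 17.0%.

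Both lower calls concern the leading form of their step. From the deposited means and shrunken folds, Ldhb made up 66.3% of the lactate dehydrogenase pair in group B and 72.6% in group A. Pfkm made up 85.1% of phosphofructokinase in group B and 87.4% in group A. In 8 of 10 families the leader's share differed by under 3 percentage points between the groups, the others being lactate dehydrogenase and hexokinase. These shares have no spread, because the levels per library are not known at such counts.

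**Figure D4:**
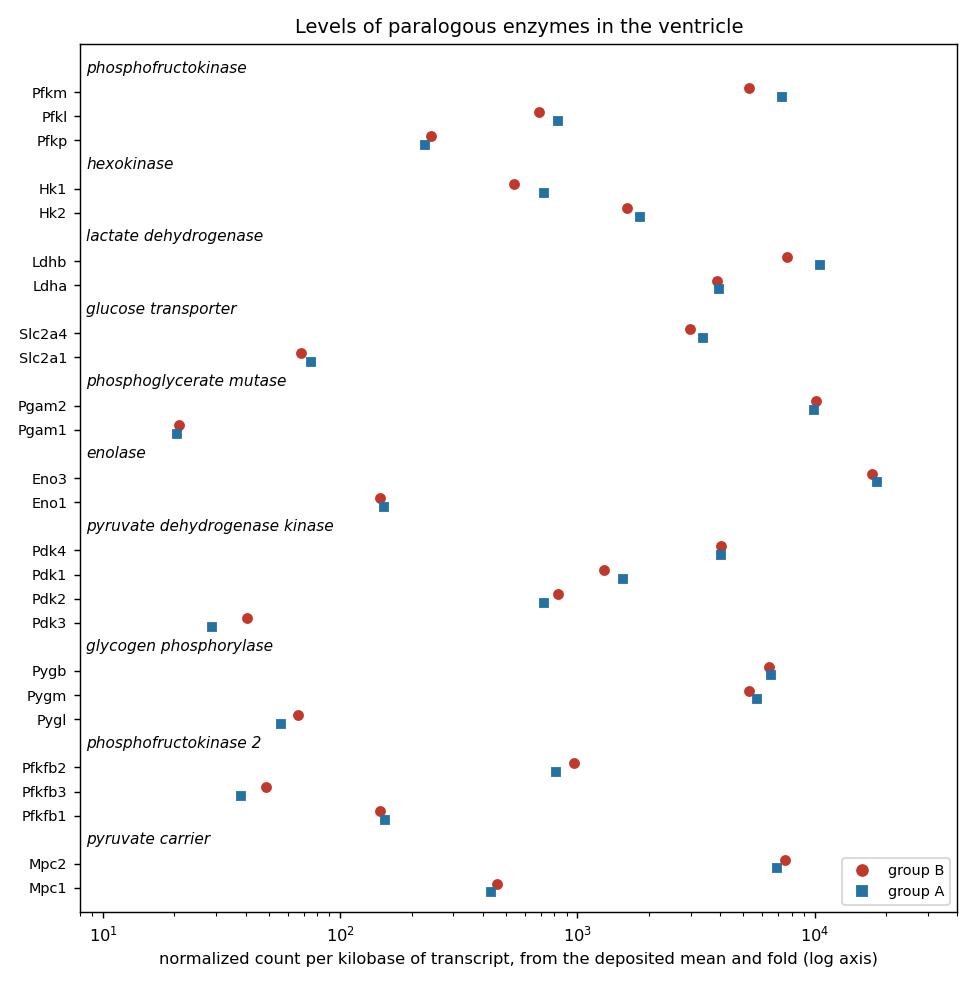
Normalized count per kilobase of the longest coding transcript (horizontal log axis) in group B (red circles) and group A (blue squares), implied by the deposited mean and shrunken fold, for 10 families of related genes. The pyruvate carrier pair are partner subunits and not alternative forms. A single gene leads by more than 10-fold in the transporter, mutase and enolase families, and for Ldhb the level was 7671 in group B and 10485 in group A.

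Of the 40 genes, Gapdh, Eno1 and Pgk1 share most of their transcript words with other genes. The share of words found in no other gene was 17.5% for Gapdh, 27.8% for Eno1 and 32.0% for Pgk1, and next came Pgam1 at 58.5%. Their levels were 69.2 for Gapdh, 150 for Eno1, 148 for Pgk1 and 20.7 for Pgam1 in mean normalized counts per kilobase. Eno3 and Pgam2, the muscle forms of the same steps as Eno1 and Pgam1, stood at 17857 and 10037 with every word their own. Pkm, at 65.6%, and Ldhb, at 73.0%, were at 5061 and 9078, where the pseudogenes listed for Pkm had no reads. Among genes with nearly all words their own, Pdk3 stood at 34.7, Pfkfb3 at 43.5, Pygl at 61.4, Slc2a1 at 71.7 and Pfkfb1 at 151. Each of these is a minor form of its family by the shares above. Gapdh and Pgk1 had no such second form, since Gapdhs and Pgk2 had no reads. The part of shared sequence in these levels was not tested.

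**Figure D5:**
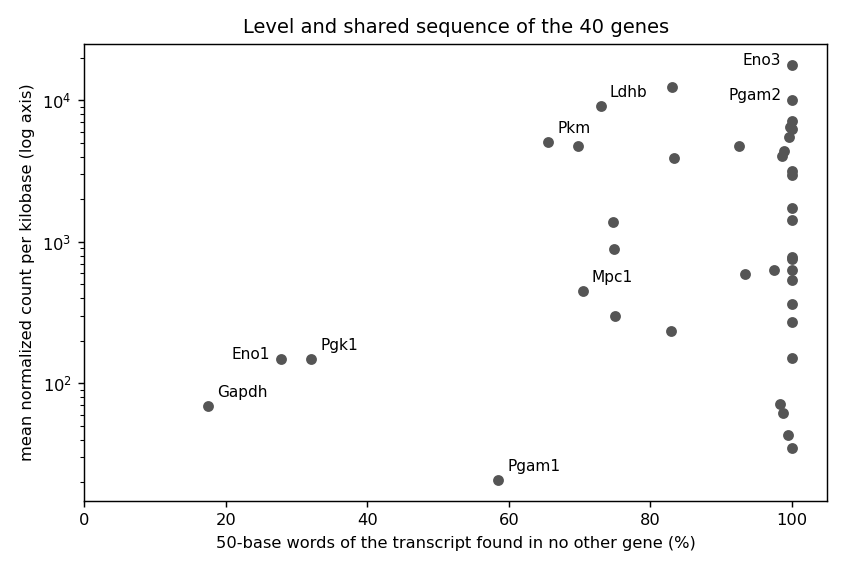
Mean normalized count per kilobase (vertical log axis) against the share of 50-base words of the longest coding transcript that no other gene's transcripts hold (horizontal axis), for the 40 genes. Gapdh, Eno1 and Pgk1 lie at the lower left with at most 32.0% of their own words, and at the right genes with nearly all words their own run from 34.7 for Pdk3 to 17857 for Eno3.

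Of 117 tested genes of related pathways, in 6 further lists, 2 were higher, 4 lower and 111 not called in group B, with a median log2 fold change of -0.03 in the authors' deposited table. That is 5.13% called, beside 3.98% over all tested genes, and nothing particular to these lists is read from it. Among 23 lactate, pyruvate and shuttle genes 3 were lower, beside 2.49% of all tested genes and 5.16% of those with a mean of at least 1000. Dld, the dihydrolipoyl dehydrogenase that the pyruvate dehydrogenase complex shares with others, stood at -0.36 with an adjusted p of 0.0124. Me3, a mitochondrial malic enzyme, was at -0.33 with an adjusted p of 0.0122 and Got2, the mitochondrial aspartate transaminase, at -0.30 with an adjusted p of 0.0125. Slc16a1, the lactate and pyruvate carrier MCT1, missed the threshold at -0.44 with an adjusted p of 0.0553, and so did Gpd1, the glycerol phosphate dehydrogenase, at 0.38 with 0.0637. All these values are from the authors' deposited table.

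Among 18 other glycogen genes Ppp1r3d, which targets protein phosphatase 1 to glycogen, was lower at -0.58 in the authors' deposited table (adjusted p 0.00132). Stbd1, a glycogen-binding protein, was at -0.63 with an adjusted p of 0.0885 there. Of 28 regulators of glucose use Hif1a alone was called. It encodes the oxygen-sensitive subunit of hypoxia-inducible factor. It was higher at 0.62 in the authors' deposited table (adjusted p 5.86e-04), at an implied level of 4087 in group B and 2663 in group A. Nr4a1, a nuclear receptor of the early response, missed the threshold at -0.82 with an adjusted p of 0.0654. Of 14 genes of the pentose phosphate and hexosamine routes Ogt, which attaches N-acetylglucosamine to proteins, was higher at 0.41 in the authors' deposited table (adjusted p 0.0105). None of 23 insulin and AMPK signalling genes was called, with Akt2 nearest at -0.28 and an adjusted p of 0.0771 there. None of 11 further glycolysis genes was called either. Slc2a3, the transporter GLUT3 of neurons, platelets and white cells, came nearest. Its normalized reads were 147, 89.4 and 77.5 in group B and 33.7, 47.7 and 69.2 in group A. The groups did not overlap, for which no share over all genes is given. Its log2 fold change in the authors' deposited table was 0.83 (adjusted p 0.0687).

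Markers of other cell types and of cardiomyocytes were read beside these genes. In bulk tissue, fewer cells of a type and less RNA per cell cannot be told apart. Of 12 cardiomyocyte markers none was called and 10 were at negative values, with a median log2 fold change of -0.13 in the authors' deposited table and an implied sum of 1605080 normalized counts in group B and 1877050 in group A. The lowest values were -0.71 for Ryr2, the calcium release channel, -0.70 for Myl2, the ventricular myosin light chain, and -0.49 for Atp2a2, the calcium pump, with adjusted p of 0.0671, 0.0572 and 0.167 there. Of 10 fibroblast markers none was called and 9 were positive, with a sum of 63517 in group B and 52904 in group A. Of 8 tested macrophage markers all were positive and 2, Mrc1 and F13a1, were called higher, with a sum of 6617 in group B and 5113 in group A. Of 8 smooth muscle and pericyte markers 7 were positive and none of these was called, while Abcc9, a subunit of the ATP-sensitive potassium channel, was called lower at -0.65 with an adjusted p of 0.00144. The 8 endothelial markers had no call, with 4 positive and 4 negative. All 5 tested platelet markers were called higher with a median of 1.18. No platelet marker was at 0, and the implied sum was 657 in group B and 347 in group A. Recovered reads leave out Pf4, the most abundant, with a mean of 250 and the smallest log2 fold change of those tested, 0.51. The recovered reads of the other 6 summed to 725, 336 and 203 in group B and 56.2, 62.8 and 130 in group A. Library B1 was highest and A1 lowest in this sum, in Gapdh and in Slc2a3. B2 was above B3 in this sum and in Slc2a3, and below B3 in Gapdh. In Pdk3, B3 was highest and A2 lowest. All 6 tested red cell genes were positive with a median of 0.52, and none was called, with a sum of 11187 in group B and 7722 in group A. Skeletal muscle markers had no call among 3 tested, and Myod1 was at 0. The part of these markers in the results for the glycolytic genes was not tested.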

How the data were processed

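RNA of cardiac ventricles was sequenced, and the values came from 1 deposited table that sets group B against group A. Per the file headers, the table gives a mean normalized count per gene, which is a signal pooled over all libraries. It also gives a log2 fold change, computed by the authors and shrunken towards 0, and an adjusted p-value of the authors. A further deposited column, the length, is the genomic span of a gene and was not used for levels. Per the submitters' processing notes, build mm9, Bowtie2 2.0 and DESeq2 were used, with no role or order given. The sources used here give neither the counter nor the annotation, nor whether strand was used. The coordinates of the table are those of GRCm38, since 25481 of 36602 identifiers (69.6%) and 30 of the 40 genes had identical positions in GENCODE M21.

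Calls required an adjusted p under 0.05. Of 38355 genes 14885 had no reads, and the lowest tested mean was 16.0. The Benjamini-Hochberg adjustment was inverted to bound each unadjusted p from above. From that came an upper bound of the standard error, which holds if p tested the deposited fold change against a normal distribution. For means under 100, whole reads per library were recovered as the set of 6 whole numbers that gives the deposited mean, and 13394 of 13403 genes (99.9%) had exactly 1 set. Within a letter, library 1 is the deepest and library 3 the shallowest. For 5 genes of the set with higher means the candidate sets were ranked by likelihood, and the first was used where it was at least 100 times as likely as the next, a limit chosen after seeing the candidates. Among 1111 genes with known reads the first set was right in 98.6% to 99.6% of those past that limit. The ranking prefers similar libraries and the deposited fold, so no SD or test was taken from these sets. Normalized reads are reads divided by the size factor. The sources used here do not give total reads.

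Recovered reads of 5348 genes with a mean of at least 5 were fitted with limma-voom (limma 3.58.1, R 4.3.3) with the size factors fixed. The inversion, the recovery and the fit were tested on simulated data. The file holds no count column, so the recovered reads took its place. Words of 50 bases and transcript lengths came from GENCODE M21, and promoters from RefSeq (GRCm38.p6). The promoters of 39 of the 40 genes were matched. There were 0 columns of single samples left unused.

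The 40 genes, the other lists and the markers were chosen with earlier results of these data known. All genes of the set are accounted for, with full values for called genes, for Gapdh and for those with recovered reads, and elsewhere called genes and up to 2 per list with the smallest adjusted p are named. The alternatives were other thresholds, filters, scalings and pseudocounts, and leaving out each library.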

Additional observations from a re-analysis of the deposited data

How the results depend on the processing

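The 6 alternatives for the calls all start from the adjusted p of the authors' deposited table. Other thresholds, filters on the mean and leaving out Gapdh could not change the calls of Pfkm and Ldhb, given their values. Both stayed called lower when p was adjusted again over genes with a mean of at least 100. That step used bounds from the same adjusted p, so these alternatives are no independent check. The median of the set stayed between -0.08 and -0.06. Gapdh stayed called at other thresholds (3 calls in all), and left the count (2 calls) where genes with a mean under 100 or Gapdh itself were taken out. The related pathway genes called were 6 at an adjusted p under 0.05, 2 at 0.01 and 13 at 0.1. The limma-voom fit of recovered reads called 26 genes, 9 higher and 17 lower in group B, with 710 at an unadjusted p under 0.05. Leaving out 1 library at a time gave from 0 to 173 calls. There were 173 without B3, 51 without B1, 18 without A3, 4 without B2, 1 without A1 and 0 without A2, where 458 genes had an unadjusted p under 0.05. Without a filter on the mean there were 224 calls, with 166 higher and 58 lower, and with TMM scaling 34, with 8 higher and 26 lower. The cause was not tested. The median log2 fold change of the fit was 0.13 with the deposited size factors and -0.01 with TMM, so 1.72 for Gapdh is 1.59 relative to that median. Its adjusted p over the alternatives ran from 6.35e-07 to 0.134. Pgam1 had a fitted value of 0.05 that was never called, and changed sign with -0.092 under TMM, from -0.041 to 0.18 over the fits without 1 library, and -0.029 without B1, -0.038 without A1 and -0.041 without A2. Relative to the median of each fit it was -0.08 with the deposited size factors and -0.09 with TMM, so the sign under TMM is that of the scaling. Without 1 library the ratio of recovered group means ran from 1.33 to 1.62 for Pdk3 and from 0.930 to 1.14 for Pgam1. No paired analysis was possible because the libraries carry no replicate numbers from the labels. The pooled table limits what can be seen for single libraries. High means allow many sets of reads, so reads per library were recovered for 8 of the 40 genes, and Pfkm and Ldhb are not among them.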
